A study of Mus musculus with 4 samples.

Results

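Interferon response genes were examined for RNA polymerase II (Pol II) peaks in brain endothelial cells (ECs). The set was a list of 38 named genes covering the interferon receptors, their kinases, the transcription factors downstream of them, and effectors. Of these, 37 had a protein-coding transcription start site (TSS) in the GENCODE M21 annotation of mm10, among 21851 protein-coding genes in all. Mx2 is annotated there as a polymorphic pseudogene and was read apart from the counts. For each gene, a promoter peak was a called peak overlapping the 1500 bp on either side of a TSS, and a body peak was one in the rest of the gene. A gene body was left for 36 of the 37 genes and for 20500 genes in all, since Isg15, at 1395 bp the shortest member, ended inside its own TSS window.

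The series held 4 chromatin immunoprecipitation sequencing (ChIP-seq) libraries from flow-sorted brain ECs, with 2 from old WT Cre mice aged 20 to 23 months and 2 from young EC-K4KO mice aged 4 to 6 months. Every mouse carried a tamoxifen-inducible Cre driven by the Cdh5 (VE-cadherin) promoter on a C57BL/6J background, and tamoxifen was given at 8 weeks of age. In EC-K4KO mice this Cre acts on a floxed Klf4 gene, whereas WT Cre mice have the wild-type gene. Each library was prepared from 200000 cells, and the number of animals behind a library is not given in the sources used here. Age and genotype changed together, so that their effects cannot be told apart. With 2 libraries in each group, the smallest two-sided exact permutation p was 0.33, so that no difference between the groups could pass that test, and none was run. The groups are called WT Cre (old) and EC-K4KO (young) from here on.

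Type I interferons bind the receptor chains Ifnar1 and Ifnar2, and interferon gamma binds Ifngr1 and Ifngr2. The receptors activate Jak-family kinases, which phosphorylate STAT proteins. A complex that includes STAT2 and IRF9 binds the interferon-stimulated response element (ISRE) in promoters of antiviral genes, and the gamma-activated site (GAS) is the element of the interferon gamma response. Many effectors are poorly transcribed in resting cells and strongly induced by interferon. A Pol II peak marks DNA where the enzyme was enriched over the local background. It does not measure the amount of RNA.

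The libraries differed in depth and far more in how many peaks were called. WT Cre replicates 1 and 2 held 65734178 and 27455452 fragments with 78851 and 39674 peaks. EC-K4KO replicate 1 held 35227929 fragments with 35638 peaks, and replicate 2 held 22705175 fragments with 235591 peaks. The last library was therefore the shallowest and had by far the longest peak list, and it had the highest share of members with a promoter or body peak. Fold enrichment is the peak caller's ratio of coverage at a summit to the local background, and a missing peak says only that none passed the caller's q of 0.01. Klf4 had 1 promoter peak in each EC-K4KO library, at fold enrichments of 4.20 and 4.17, and none in either WT Cre library. Promoter peaks in this pattern were seen at 3.1% of all genes. In its body Klf4 had 2 peaks in EC-K4KO replicate 2 (tallest 5.67) and 1 in WT Cre replicate 1 (3.12). Which part of Klf4 the flox sites enclose is not given in the sources used here, so that these peaks do not check the labels. Of 16 endothelial marker genes, 6, 7, 1 and 10 had a promoter peak in WT Cre replicates 1 and 2 and EC-K4KO replicates 1 and 2. The corresponding counts for 8 microglia markers were 3, 1, 0 and 6. Astrocyte markers gave 2, 0, 1 and 2 of 5, oligodendrocyte markers 0, 1, 0 and 4 of 5, neuron markers 0, 1, 1 and 3 of 4, and pericyte markers 1, 0, 1 and 2 of 4. Over all genes the shares with a promoter peak were 25.6%, 24.5%, 10.6% and 67.5% in the same order of libraries. The part of other cell types in the results was not tested.

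Sequences are shown first for the 3 members whose promoter had a peak in both EC-K4KO libraries, namely Oasl1, Stat2 and Ifnar2. They are read from the plus strand of GRCm38 (mm10) at the peaks of EC-K4KO replicate 1. The Oasl1 peak at chr5:114922448-114922608 and the Stat2 peak at chr10:128269680-128269842 are whole. The Ifnar2 sequence spans chr16:91373356-91373506, centred on the peak's summit. No ISRE core (GAAANNGAA) or GAS (TTCNNNGAA) match was present in these 3 sequences on either strand.
Oasl1 peak: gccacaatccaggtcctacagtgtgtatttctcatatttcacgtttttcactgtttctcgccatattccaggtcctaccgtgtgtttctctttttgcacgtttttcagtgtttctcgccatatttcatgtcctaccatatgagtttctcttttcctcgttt
Stat2 peak: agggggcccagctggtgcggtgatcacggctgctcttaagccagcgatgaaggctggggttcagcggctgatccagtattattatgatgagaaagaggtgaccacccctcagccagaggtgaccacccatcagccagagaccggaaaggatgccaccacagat
Ifnar2 peak: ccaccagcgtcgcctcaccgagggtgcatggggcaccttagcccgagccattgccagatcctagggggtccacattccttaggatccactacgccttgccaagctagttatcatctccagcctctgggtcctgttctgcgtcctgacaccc

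Promoters are shown next for Ifit1 and Isg15, classical interferon-induced genes with no promoter peak in any library, and for Stat2 and Oasl1. They come from RefSeq (GRCm38.p6) and run from 250 bases before to 50 bases after the annotated start, in the direction of the gene. The windows lie at chr19:34640639-34640938 (plus strand), chr4:156200769-156201068 (minus strand), chr10:128270248-128270547 (plus strand) and chr5:114922990-114923289 (plus strand). Capitals mark matches to the ISRE core or the GAS on either strand. Ifit1 and Isg15 each held 3 overlapping or neighbouring ISRE core matches, Stat2 held 1 and Oasl1 held 0.
Ifit1 promoter: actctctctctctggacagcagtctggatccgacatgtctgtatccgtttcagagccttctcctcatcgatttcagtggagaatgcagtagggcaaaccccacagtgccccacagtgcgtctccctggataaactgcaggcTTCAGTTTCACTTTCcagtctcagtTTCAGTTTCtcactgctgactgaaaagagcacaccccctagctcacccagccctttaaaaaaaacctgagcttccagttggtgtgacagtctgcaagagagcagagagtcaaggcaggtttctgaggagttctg
Isg15 promoter: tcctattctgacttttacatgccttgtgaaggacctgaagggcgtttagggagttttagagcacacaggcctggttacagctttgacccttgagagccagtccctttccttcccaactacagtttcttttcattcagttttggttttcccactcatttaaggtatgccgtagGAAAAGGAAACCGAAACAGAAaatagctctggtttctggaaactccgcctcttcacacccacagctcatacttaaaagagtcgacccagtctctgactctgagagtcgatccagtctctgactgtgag
Stat2 promoter: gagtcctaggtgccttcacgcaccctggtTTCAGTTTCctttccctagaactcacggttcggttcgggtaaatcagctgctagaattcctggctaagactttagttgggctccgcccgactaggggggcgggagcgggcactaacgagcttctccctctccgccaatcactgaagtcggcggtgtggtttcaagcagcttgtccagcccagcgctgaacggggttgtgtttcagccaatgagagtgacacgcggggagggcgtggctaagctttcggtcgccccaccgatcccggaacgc
Oasl1 promoter: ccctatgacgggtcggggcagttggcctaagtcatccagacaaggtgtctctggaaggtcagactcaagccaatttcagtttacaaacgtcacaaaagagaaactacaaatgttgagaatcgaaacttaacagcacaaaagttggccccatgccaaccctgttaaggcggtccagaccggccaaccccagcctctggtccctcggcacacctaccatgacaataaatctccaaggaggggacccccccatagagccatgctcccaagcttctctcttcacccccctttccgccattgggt

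Promoter peaks were present at few members in 3 of the 4 libraries. In WT Cre replicate 1, 4 of 37 members had one (10.8%, 95% exact binomial interval 3.03 to 25.4), against 25.6% of all protein-coding genes. In WT Cre replicate 2 the count was 5 of 37 (13.5%, 4.54 to 28.8), against 24.5% of all genes. In EC-K4KO replicate 1 it was 3 of 37 (8.11%, 1.70 to 21.9), against 10.6%. In EC-K4KO replicate 2 it was 24 of 37 (64.9%, 47.5 to 79.8), against 67.5%. The intervals cover counting error over genes only, and genes of 1 library are not independent replicates.

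Because longer genes can hold more peaks, the background was also standardised to the members' gene lengths, using the other genes in each of 10 length classes. The members had a median length of 15299 bp, against 17380 bp for all protein-coding genes, and ranged up to 112916 bp for Jak1. The standardised shares were 23.9%, 22.3%, 9.67% and 65.8% in the same order of libraries. The members' share minus the standardised share was -13.1 and -8.81 percentage points in the WT Cre libraries, and -1.57 and -0.962 points in the EC-K4KO libraries. Each standardised share lay inside the members' interval, and the unstandardised 25.6% of WT Cre replicate 1 lay just above it. With these lists, a difference from the length-standardised background was not detectable at this number of genes. With lists of equal length the differences were -8.22, -7.14, -1.57 and -14.7 points, so that the lowest value was then that of EC-K4KO replicate 2, whose standardised share of 25.5% lay just above the interval of its 4 of 37 members (3.03 to 25.4). With peaks of at least 4-fold enrichment, WT Cre replicate 1 had 0 of 37 members (upper limit 9.49%), against a standardised 10.8%.

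**Figure D1:**
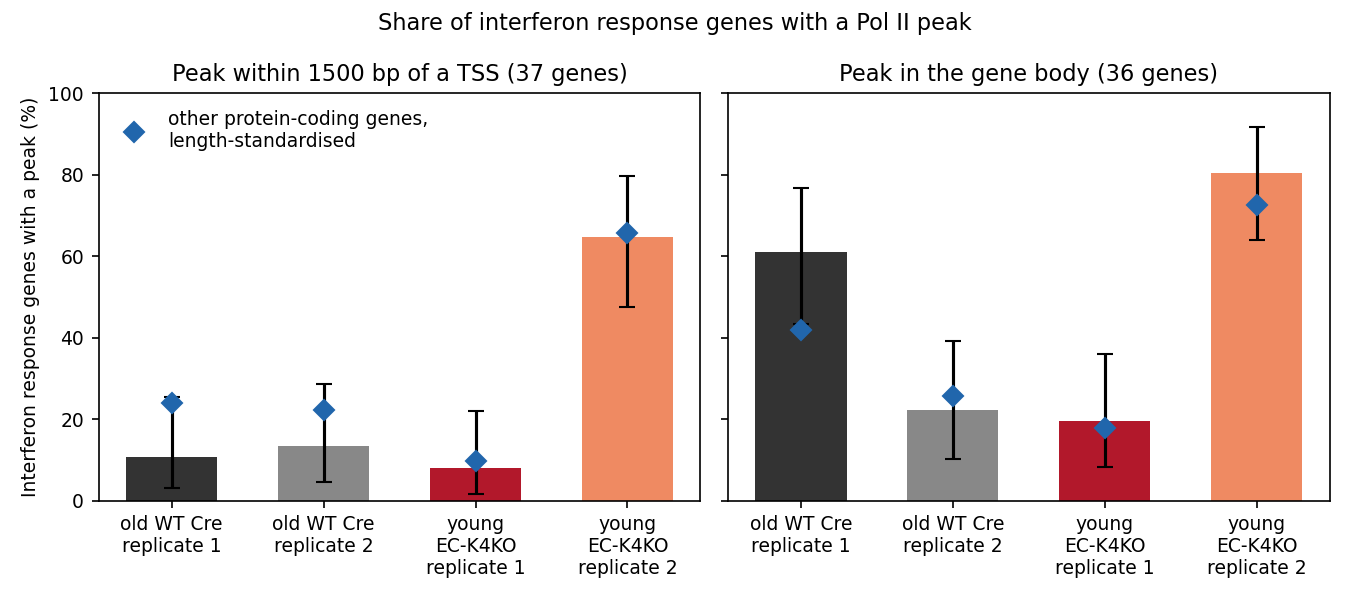
Share of interferon response genes with a Pol II peak (y axis, percent) in each of the 4 libraries (x axis), for promoters at left and gene bodies at right; bars give the members, error bars the 95% exact binomial interval, and diamonds the length-standardised share of the other protein-coding genes. Promoter bars of 10.8%, 13.5%, 8.11% and 64.9% have the diamond inside the interval, and the body bar of WT Cre replicate 1 (61.1%) has it at 41.8%, just below the interval.

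The members with a promoter peak differed between the WT Cre libraries. Replicate 1 had peaks at B2m, Ifngr1, Oas3 and Rsad2, whereas replicate 2 had peaks at Ifit3, Irf8, Jak1, Tyk2 and Usp18. No member was found in both, against 10.1% of all genes (8.58% after length standardisation). A count of 0 of 37 allows a share of up to 8.11% by the limit of 3 counts and up to 9.49% by the exact binomial interval, which includes the standardised share. Both EC-K4KO libraries had a promoter peak at 3 members, Ifnar2, Oasl1 and Stat2 (8.11%, 1.70 to 21.9), against 9.13% of all genes. The same 3 genes lacked a peak in both WT Cre libraries, a pattern seen at 3.1% of all genes (2.98% after standardisation), which lay inside the members' interval. The reverse pattern, both WT Cre libraries and neither EC-K4KO library, was seen at 0 members, against 0.787% of all genes. Promoter peaks in all 4 libraries were seen at 0 members, against 2.22% of all genes, and in exactly 3 libraries at 0 members, against 10.9%. A promoter peak in exactly 2 libraries was seen at 9 members, against 25.2% of all genes, and in exactly 1 library at 18, against 36.3%.

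At 10 members no library had a promoter peak (27.0%, against 25.4% of all genes). These were the RNA sensor gene Ddx58 (RIG-I), the DNA and RNA sensor gene Zbp1, the synthetase genes Oas1a and Oas2, Ifit1, Ifit2, Gbp2, Ifi44, Isg15 and Isg20. Ifit1 and Isg15 had no promoter or body peak in any library by these definitions, and Isg15 had no separate body. With a TSS window of 3000 bp, Isg15 had a peak in both WT Cre libraries and in EC-K4KO replicate 2.

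**Figure D2:**
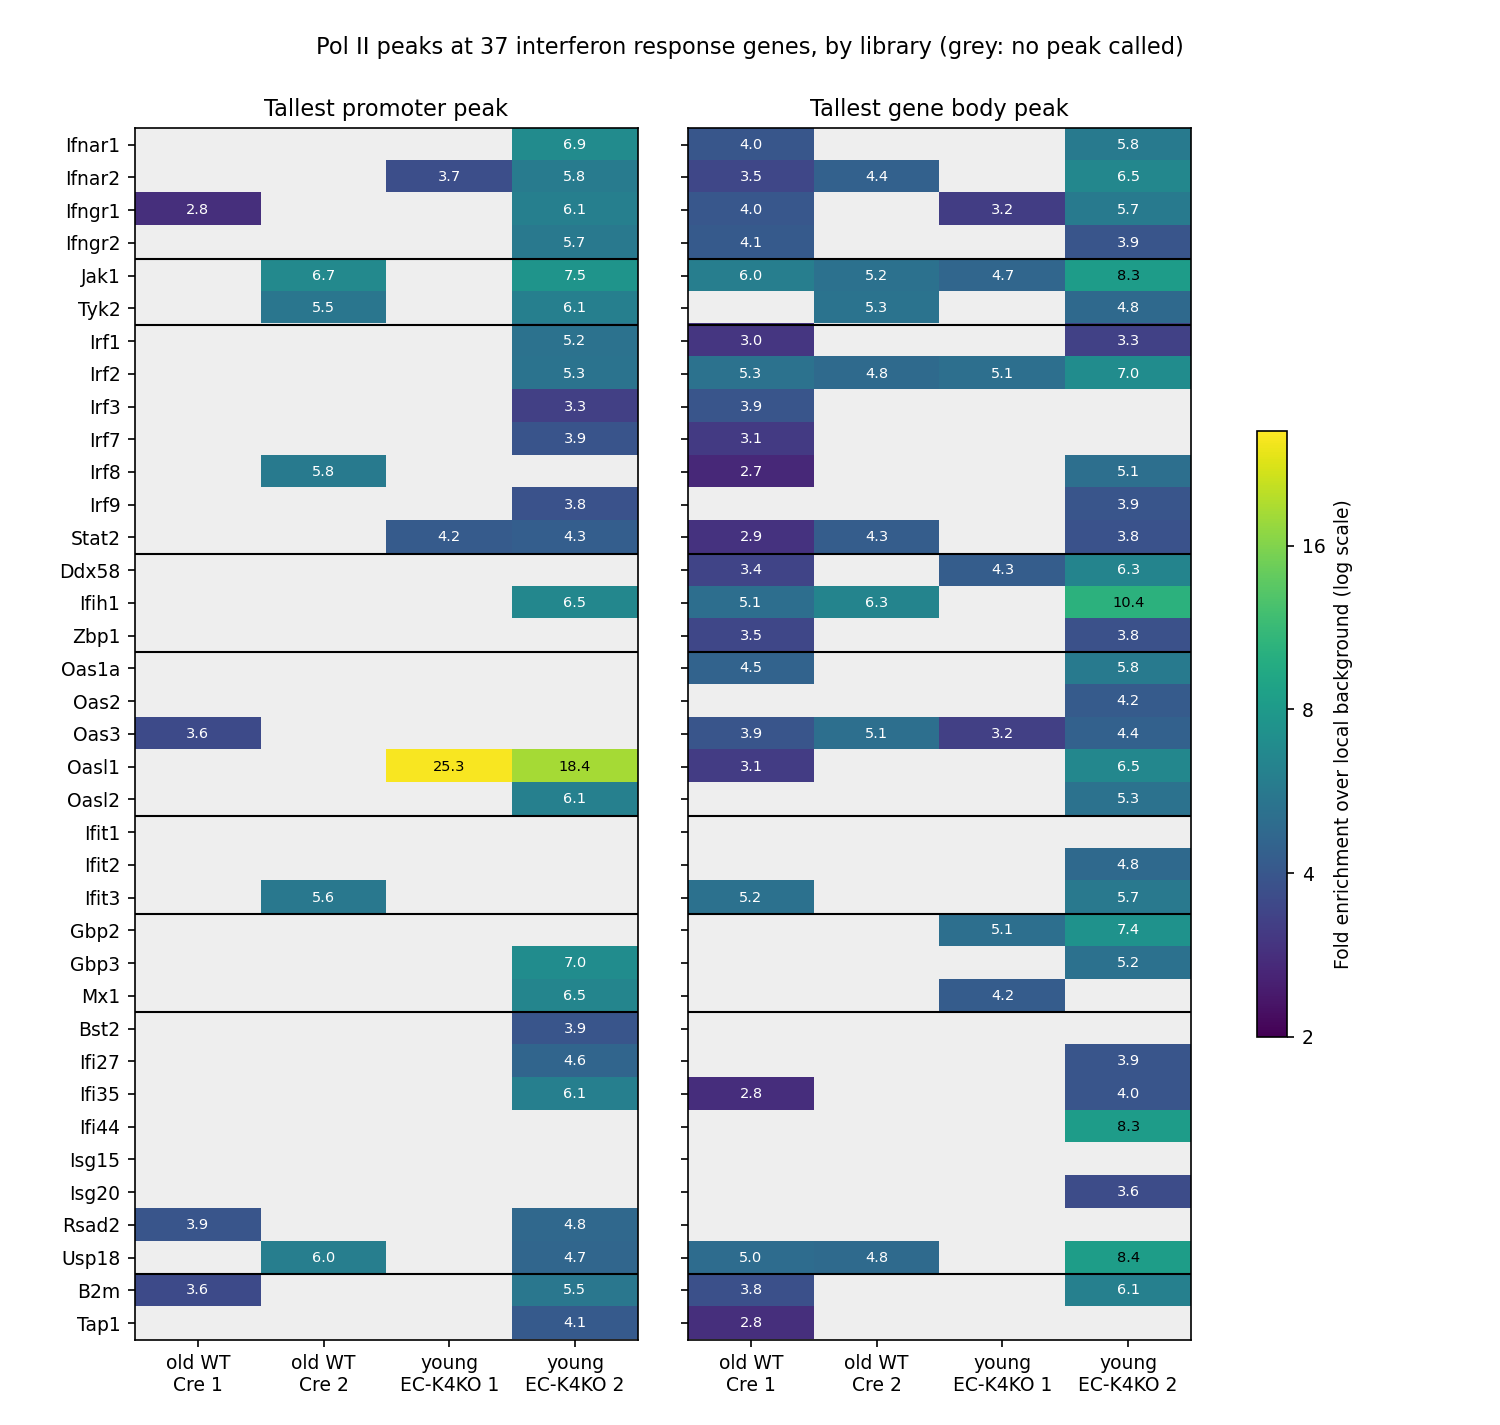
Fold enrichment over local background of the tallest promoter peak (left) and tallest body peak (right) for 37 interferon response genes (rows, with lines between roles) in 4 libraries (columns), on a log colour scale; grey marks no called peak, and Isg15 has no body. Oasl1 at 25.3 and 18.4 in the EC-K4KO libraries is the only member promoter above 8, and most promoter peaks fall in EC-K4KO replicate 2.

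Of the receptor chains, 4 of 4 had a promoter peak in EC-K4KO replicate 2, and 1, 0 and 1 in the other libraries, against 67.5%, 25.6%, 24.5% and 10.6% of all genes. Ifnar2 had a fold enrichment of 3.71 in EC-K4KO replicate 1 and 5.80 in replicate 2, with the summits 532 and 543 bp downstream of the TSS in an intron. No peak was called there in WT Cre libraries. Ifngr1 had a peak of 2.82 in WT Cre replicate 1 and 6.07 in EC-K4KO replicate 2, 361 and 45 bp downstream of the TSS. Ifnar1 and Ifngr2 had promoter peaks of 6.88 and 5.65 in EC-K4KO replicate 2 only. WT Cre replicate 1 nevertheless had body peaks at all 4 receptor genes, with tallest values from 3.45 at Ifnar2 to 4.15 at Ifngr2, where 50.3% of all genes had a body peak.

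Both Jak-family kinase genes had a promoter peak in WT Cre replicate 2 and in EC-K4KO replicate 2, against 24.5% and 67.5% of all genes. A promoter peak in both of these libraries was seen at 4735 of 21851 genes. Jak1, the kinase shared by the type I and gamma receptors, had a promoter peak of 6.71 in WT Cre replicate 2 and 7.52 in EC-K4KO replicate 2. These peaks spanned 740 and 764 bp, overlapped, and covered 17 and 26 fragments at their summits. The WT Cre value was at least as high as at 91.4% of genes with a promoter peak in its library. For the EC-K4KO value this share was 77.3%. Tyk2, the kinase bound to Ifnar1, had values of 5.48 and 6.05 in the same libraries, but at different start sites that did not overlap. Neither gene had a promoter peak in WT Cre replicate 1 or in EC-K4KO replicate 1.

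Among the transcription factors, 6 of 7 had a promoter peak in EC-K4KO replicate 2, and 0, 1 and 1 in the other libraries, against 67.5%, 25.6%, 24.5% and 10.6% of all genes. Stat2, a subunit of the ISRE-binding complex, had a fold enrichment of 4.16 in EC-K4KO replicate 1 and 4.32 in replicate 2. The summits lay 792 and 1041 bp upstream of the TSS, within the neighbouring protein-coding gene Apof, and the peaks overlapped. Irf9, its DNA-binding partner, had a value of 3.83 in EC-K4KO replicate 2, 939 bp upstream and within Rnf31. Irf1, an activator induced by interferon gamma, had 5.23 and Irf2, which binds the same element, had 5.33, both in EC-K4KO replicate 2. Irf3 and Irf7, which induce the interferon genes themselves, had low values of 3.25 and 3.91 there, with summits 1411 bp upstream (within Bcl2l12) and 1018 bp downstream. Irf8, a factor of macrophages and microglia, was the exception, with 5.75 in WT Cre replicate 2, 90 bp downstream of a TSS and within the annotated gene Gm20388, and no promoter peak elsewhere.

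Of the 3 sensors, only Ifih1 (MDA5) had a promoter peak, at 6.53 in EC-K4KO replicate 2 and 70 bp downstream of the TSS. Over all genes, 25.6% and 24.5% had one in WT Cre replicates 1 and 2, and 10.6% and 67.5% in EC-K4KO replicates 1 and 2. Of the OAS family, which senses double-stranded RNA, Oas3 had 3.55 in WT Cre replicate 1 and Oasl2 had 6.10 in EC-K4KO replicate 2. The Oas3 peak was 78.2% repeat-masked, with the summit 811 bp upstream and within the antisense gene Gm43069. Of the IFIT family, which binds foreign RNA, Ifit3 had 5.59 in WT Cre replicate 2. Its peak was 99.0% repeat-masked in the reference, and its 32-base words occurred at a median of 2 places on the main chromosomes. The guanylate-binding protein gene Gbp3 and the antiviral GTPase gene Mx1 had 6.96 and 6.45 in EC-K4KO replicate 2. Mx2, read from its own transcripts, had a promoter peak of 3.27 in WT Cre replicate 1 and of 3.80 in EC-K4KO replicate 2.

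Usp18, a protease that removes ISG15 and dampens receptor signalling, had 5.97 in WT Cre replicate 2 and 4.69 in EC-K4KO replicate 2, with overlapping peaks 63 and 28 bp downstream of the TSS. Rsad2 (viperin) had 3.94 in WT Cre replicate 1 and 4.77 in EC-K4KO replicate 2. The former peak lay 913 bp upstream in sequence that was 100% repeat-masked, and the latter lay 175 bp downstream in a coding exon and was 13.3% masked. B2m, the invariant chain of class I molecules, had 3.57 in WT Cre replicate 1 and 5.55 in EC-K4KO replicate 2, within the span of the neighbouring gene Patl2. Tap1, which transports peptides to those molecules, had 4.15 in EC-K4KO replicate 2 only. The remaining promoter peaks, at Bst2 (3.94), Ifi27 (4.61) and Ifi35 (6.06), were in that library as well.

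Oasl1 had the tallest promoter peaks of the set. In EC-K4KO replicate 1 its fold enrichment was 25.3, with 198 fragments at the summit (5.62 per 1000000 fragments of the library) and a -log10 q of 204. In EC-K4KO replicate 2 the value was 18.4, with 75 fragments (3.30 per 1000000) and a -log10 q of 70.5. No peak was called at this position in either WT Cre library, so that the groups did not overlap in the presence of the peak, with 2 libraries each. A promoter peak in this pattern was seen at 3.1% of all genes. Among genes with a promoter peak, Oasl1 ranked 4 of 2323 in EC-K4KO replicate 1 and 13 of 14760 in replicate 2. The next highest member promoter value was 7.52, at Jak1. In its body, Oasl1 had tallest peaks of 3.15 in WT Cre replicate 1 and 6.53 in EC-K4KO replicate 2.

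The Oasl1 peak was narrow and nearly the same in both libraries, 161 and 159 bp wide, with the summit 743 and 742 bp upstream of the Oasl1 TSS. It lay within Gm13822, an antisense gene that starts near Oasl1, with the summit 780 and 779 bp from the start of that gene. Reads from a promoter of either gene cannot be told apart by this assay. In the reference, 77.6% of its bases were repeat-masked, and 97.7% of its 32-base words occurred at 1 place on the main chromosomes. Only exact words were counted, and sequence outside these chromosomes was not searched. A local alignment of the printed sequence to the tallest peak of EC-K4KO replicate 1, at chr2:98666549-98667332, gave 87.9% identity over 149 bases. The tallest peak lay at this place in all 4 libraries. Its summit pileup equalled 14.6% and 15.3% of the library's fragments in the WT Cre libraries, against 3.36% and 1.73% in the EC-K4KO libraries. Of 61 other peaks on the main chromosomes at least as high as that of Oasl1 in EC-K4KO replicate 1, 6 aligned to its sequence over at least 100 bases with at least 75% identity, and in EC-K4KO replicate 2 the count was 6 of 156. None of the 41 other member promoter peaks (0 of 41) did so. The part of this sequence likeness in the Oasl1 peak was not tested.

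**Figure D3:**
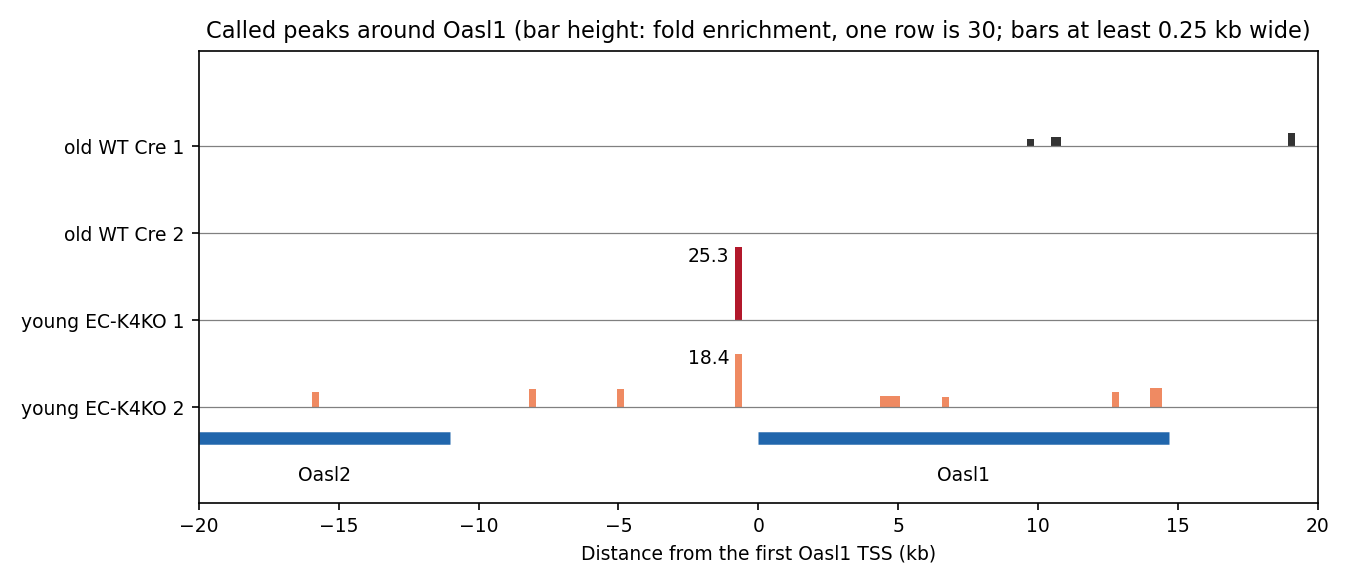
Called peaks within 20 kb of the first Oasl1 TSS (x axis, kb from the TSS) in each library (rows), with bar height giving fold enrichment and blue bars the Oasl1 and Oasl2 genes. The narrow peaks of 25.3 and 18.4 stand just upstream of Oasl1 in the EC-K4KO libraries, and WT Cre libraries have none there.

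Summits of member promoter peaks lay on both sides of the TSS. They were within 500 bp of a TSS for 2 of 4 peaks in WT Cre replicate 1, 4 of 5 in replicate 2, 0 of 3 in EC-K4KO replicate 1 and 17 of 31 in replicate 2. The shares for other genes were 58.4%, 71.1%, 61.1% and 62.2%. Median heights were also near those of all genes. The median tallest fold enrichment per gene was 3.56 for members and 3.94 for all genes in WT Cre replicate 1, and 5.75 and 5.0 in replicate 2. In EC-K4KO replicate 1 both were 4.16, and in replicate 2 they were 5.60 and 5.82. Repeat-masked sequence made up over 50% of 2 of 4, 1 of 5, 1 of 3 and 3 of 31 member promoter peaks, against 10.4%, 5.54%, 7.92% and 4.56% of all promoter peaks.

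**Figure D4:**
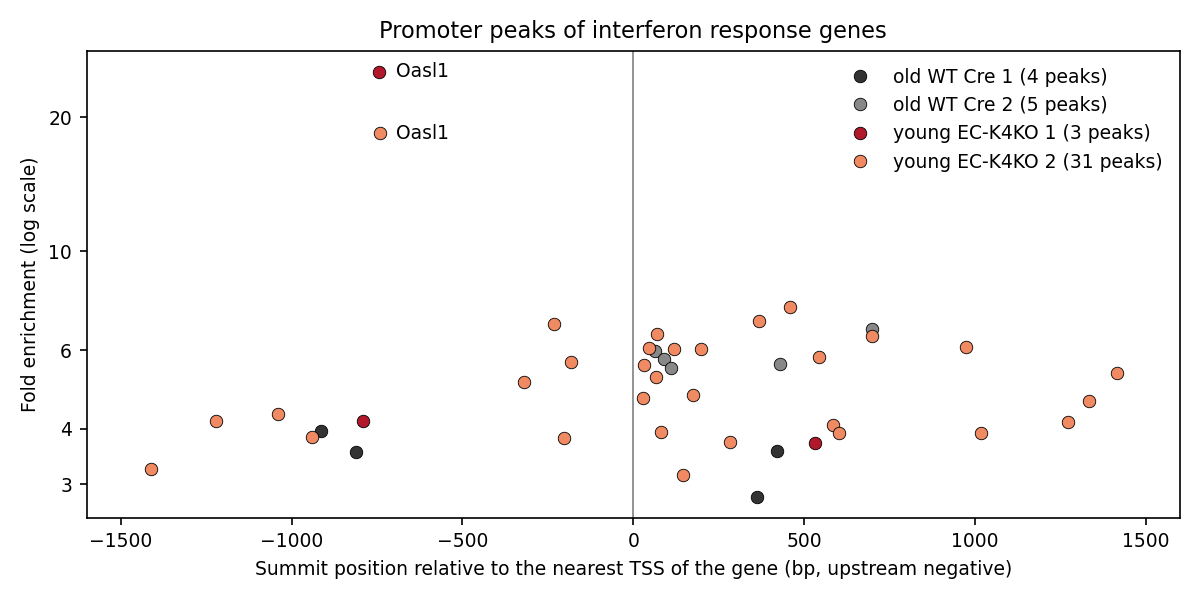
Summit position of each member promoter peak relative to the nearest TSS of its gene (x axis, bp, upstream negative) against its fold enrichment (y axis, log scale), coloured by library. The Oasl1 peaks, at 25.3 and 18.4, are isolated above the others, which lie between 2.82 and 7.52 on both sides of the TSS.

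Where a member had a promoter peak in more than 1 library, the peaks mostly overlapped. They did so for 3 of 3 members shared by the EC-K4KO libraries, against 66.4% of all genes shared by them. Of the 3 members shared by WT Cre replicate 1 and EC-K4KO replicate 2, Ifngr1 and B2m overlapped and Rsad2 did not (all genes 64.5%). Of the 3 shared by WT Cre replicate 2 and EC-K4KO replicate 2, Jak1 and Usp18 overlapped and Tyk2 did not (all genes 74.6%).

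The members' gene bodies ranged from 1701 bp at Bst2 to 111415 bp at Jak1. More members had a body peak than a promoter peak in each library, as did all genes. In WT Cre replicate 1, 22 of 36 members had a body peak (61.1%, 43.5 to 76.9), against 50.3% of all genes. In replicate 2 the count was 8 (22.2%), against 35.4%. In EC-K4KO replicate 1 it was 7 (19.4%), against 27.8%, and in replicate 2 it was 29 (80.6%), against 74.3%. After length standardisation the backgrounds were 41.8%, 25.8%, 18.0% and 72.7%. The difference in WT Cre replicate 1 was 19.3 percentage points (1.67 to 35.1). It fell to 0.684 points when only peaks of at least 4-fold enrichment were kept, to 2.57 at a q of at most 1e-05 and to 5.0 with lists of equal length. It was 9.97 points over the whole gene span and 10.8 against the background without length standardisation. The other differences were -3.59, 1.48 and 7.88 points, with intervals that spanned 0.

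Per 100 kb of gene body, the members held 5.37 peaks in WT Cre replicate 1, against 3.38 for all genes, and 1.55 against 1.56 in replicate 2. In the EC-K4KO libraries they held 1.70 against 1.25 and 12 against 9.89. Median fold enrichments of the members' body peaks were 3.42, 4.85, 4.09 and 4.79, against 3.94, 4.85, 4.16 and 4.79 over all peaks. The tallest member body peaks of WT Cre replicate 2 and EC-K4KO replicate 2 were in Ifih1, which had 5.07, 6.34 and 10.4 in WT Cre replicates 1 and 2 and EC-K4KO replicate 2, in introns but at different positions. In WT Cre replicate 1 the tallest was in Jak1, at 6.01, and in EC-K4KO replicate 1 it was 5.10, in both Gbp2 and Irf2.

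Irf2, Jak1 and Oas3 had body peaks in all 4 libraries (3 of 36, against 17.0% of all genes, or 6.99% after standardisation). Jak1 held 5, 3, 4 and 17 body peaks, Irf2 3, 2, 2 and 9, and Oas3 1, 1, 1 and 4, in the same order of libraries. Both WT Cre libraries had body peaks at 7 members, namely Ifih1, Ifnar2, Irf2, Jak1, Oas3, Stat2 and Usp18 (19.4%, against 28.8% of all genes, or 17.7% after standardisation). Both EC-K4KO libraries had them at 6 members, namely Ddx58, Gbp2, Ifngr1, Irf2, Jak1 and Oas3 (16.7%, against 26.6%, or 16.2% after standardisation). Gbp2 alone had body peaks in both EC-K4KO libraries and in neither WT Cre library (1 of 36, against 2.81% of all genes), with tallest values of 5.10 and 7.40. The reverse pattern was seen at 0 members, against 0.512%. Bst2, Ifit1 and Rsad2 had no body peak in any library (3 of 36, against 21.0%).

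A body peak of the same gene in several libraries was often at another position. Of the members' body peaks, 7 of 38, 5 of 11, 7 of 12 and 11 of 85 overlapped a peak of another library, against 29.2%, 43.0%, 33.3% and 12% of the body peaks of all genes. No position was shared by all 4 libraries. In Irf2, an intronic position was shared by WT Cre replicate 2 (4.47) and EC-K4KO replicates 1 and 2 (4.08 and 6.96). In Ifngr1, a position in the later part of the gene was shared by WT Cre replicate 1 (4.0) and EC-K4KO replicates 1 and 2 (2.95 and 5.71). Positions shared by the WT Cre libraries alone were in Ifnar2 (3.45 and 4.43), Jak1 (3.0 and 4.85) and Usp18 (3.19 and 4.85), and those of Ifnar2 were 100% repeat-masked. Positions shared by the EC-K4KO libraries alone were in Ddx58 (4.27 and 5.04), Gbp2 (5.10 and 4.79), Irf2 (5.10 and 5.22) and Jak1, which had 2 such positions (4.11 and 5.74, and 4.0 and 4.96). Positions shared by 1 library of each group were in B2m (3.75 and 6.11), Ifi35 (2.80 and 3.95) and Ifngr2 (4.15 and 2.99), for WT Cre replicate 1 and EC-K4KO replicate 2, and in Stat2 (4.25 and 3.83), for replicate 2 of each group. The 32-base words of the Ddx58 peaks occurred at a median of 11 and 10 places on the main chromosomes. Oas3, although it had a body peak in each library, had no position in common.

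Some promoters of the set carried interferon elements. Promoter sequences were present in the RefSeq table for 32 members, with 39 promoters, and for 32851 promoters in all. The ISRE core was in 38.5% of member promoters, against 8.56% of all, and the GAS was in 25.6% against 8.30%. These shares follow from the kind of gene listed and are given as description. The Klf-type motif GGGNGNGGC was in 33.3% against 25.8%, and the ETS motif ACTTCCGG was in 7.69% against 3.89%. All motifs were read on both strands, and overlaps between them were allowed. Of the 15 members with an ISRE core match, 3, 1, 1 and 7 had a promoter peak in the 4 libraries. Of the 17 without one, 1, 3, 2 and 14 did. Over all genes the shares were 25.2%, 19.97%, 10.2% and 60.4% with the match and 25.7%, 25.4%, 10.8% and 69.4% without it. Members with a promoter peak in EC-K4KO replicate 2 held a median of 14 CpG dinucleotides in the 300 bases (range 2 to 43, n = 21), and those without held 6 (range 1 to 38, n = 11). For all genes the corresponding medians were 20 and 4.

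A wider list of 71 other interferon pathway genes, of which 65 could be read, gave promoter peaks at 21, 8, 9 and 38 genes (32.3%, 12.3%, 13.8% and 58.5%), against 25.6%, 24.5%, 10.6% and 67.5% of all genes. Both WT Cre libraries had promoter peaks at 6 of them and both EC-K4KO libraries at 8, where the shares over all genes were 10.1% and 9.13%. Irf4, a factor of lymphocytes, had peaks of 6.17 and 4.60 in the EC-K4KO libraries and none in WT Cre libraries. This pattern was seen at 3 of the 65 genes, against 3.1% of all genes. Ifit3b, a close copy of Ifit3, was the 1 gene of the 65 with the reverse pattern, with 4.56 and 5.22 in the WT Cre libraries, a pattern seen at 0.787% of all genes. Cgas, a DNA sensor, and Pias1, an inhibitor of STAT signalling, had promoter peaks in all 4 libraries (2 of 65, against 2.22% of all genes).

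The length of the peak lists changed which members were named. With each list cut to its 35638 most significant peaks, EC-K4KO replicate 2 had promoter peaks at 4 members, Ifi35, Ifnar1, Jak1 and Oasl1 (10.8%, against 27.7% of all genes), and Oasl1 was the only member in both EC-K4KO libraries. At a q of at most 1e-05, Oasl1 was again the only one. With a TSS window of 500 bp, Ifnar2 was the only one, since the Oasl1 and Stat2 peaks lay farther upstream. Without EC-K4KO replicate 1, 18 members had a promoter peak in the remaining EC-K4KO library and in neither WT Cre library (48.6%), against 33.7% of all genes.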

How the data were processed

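RNA Pol II ChIP-seq was measured in 4 libraries of sorted brain ECs, grouped by the labels into old WT Cre (n = 2) and young EC-K4KO (n = 2). The authors aligned the reads to mm10 with Bowtie2, removed duplicates and called peaks in each library with MACS2 at a q-value of 0.01 with no control library. The deposited peak tables, written by MACS version 2.2.7.1 per the file headers, give the pileup (a coverage signal, in fragments), the fold enrichment over the local background, and the -log10 p-value and -log10 q-value. The other deposited peak and summit files repeat these values and were not used.

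A gene had a promoter peak when a peak overlapped the window of 1500 bp around a TSS (GENCODE M21, protein-coding genes), and a body peak when one overlapped the remaining gene span. Shares were given with exact Clopper-Pearson intervals (scipy 1.17.1) beside all genes and a background standardised over 10 length classes. Intervals and limits of 3 counts for a share of 0 cover counting error only. By rule, values were given for receptors, transcription factors, members with a promoter peak in 3 or more libraries or in both libraries of 1 group only, and members with no peak were named. Wider-list genes were named for a promoter peak in all 4 libraries or in both of 1 group only, and some are not reported here. Values of the other members were added after they were seen. No test between groups was run, since 2 against 2 libraries allow no exact p below 0.33. Overlap rules were tested on simulated data with peaks planted at known genes. Alternatives changed the q-value, fold enrichment, list length, window, overlap rule and background, or left out a library. The alignment of the Oasl1 peak was added after its height was seen. The members and lists were chosen with earlier results of these data known.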

Additional observations from a re-analysis of the deposited data

How the results depend on the processing

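Of 102 recomputed values, 80 stayed within the 95% interval of the reported share difference or within 1.5 times the reported count, and 22 moved. The intervals were wide, such as 1.67 to 35.1 points for the body share of old WT Cre replicate 1. Staying inside one is therefore a weak criterion. The relation of a standardised share to the members' interval changed for some, as given with the promoter and body shares. The body difference of old WT Cre replicate 1 moved to 0.684 points at a fold enrichment of at least 4, and that of young EC-K4KO replicate 2 to -9.03 points with lists of equal length. Of 52 share differences, 7 changed sign, and the last value was 1 of them. The other sign changes lay inside the interval and were counted as staying. Promoter peaks in both old WT Cre libraries rose from 0 to 2 members (Ifit3 and Isg15) with a 3000 bp window, 1 of them in neither young EC-K4KO library. Promoter peaks in both young EC-K4KO libraries fell from 3 to 1 member at a q of at most 1e-05, with lists of equal length and with a 500 bp window, and those absent from old WT Cre libraries likewise to 1. Body peaks in both old WT Cre libraries fell from 7 to 3 members at a q of at most 1e-05 and to 4 at a fold enrichment of at least 4. Those in both young EC-K4KO libraries fell from 6 to 3 at that q and to 2 with lists of equal length. The causes were not tested beyond the construction of each alternative, which keeps fewer peaks or another window.

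Leaving out 1 library turns a count over both libraries into that of the other. Promoter counts then ranged from 4 to 5 in the older group and from 3 to 24 in the younger. Body counts ranged from 8 to 22 and from 7 to 29. Promoter counts in neither library of the other group ranged from 0 to 2 and from 3 to 18. No paired analysis was possible because no result here rests on a test, and replicate numbers name libraries only. Lower depth and a shorter list limit what a missing peak shows.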
